A study of Homo sapiens with 6 samples.

Results

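The p53 pathway and target genes described here are 40 genes chosen by symbol from what is generally known of the transcription factor p53. They were chosen with earlier results of these data known. All 40 were among the 16760 genes measured. Cells labelled H1975, a human lung adenocarcinoma line, were sequenced as 3 YTHDC2 knockout and 3 WT libraries of RNA. The labels give both groups the same cell line and name no drug, dose, irradiation or time point. The study had sequenced these cells to find genes that depend on YTHDC2, an RNA helicase that reads N6-methyladenosine (m6A) marks on RNA. Whether the knockout cells were 1 clone or a pool, and whether replicates came from separate cultures, is not given in the sources used here. The p-values therefore measure the spread between these libraries.

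In an unstressed cell p53 is kept low by the ubiquitin ligase MDM2, which is itself a p53 target, so that target and inhibitor form a loop. When DNA is damaged or growth signals go wrong, p53 accumulates, binds DNA as a tetramer and raises transcription of genes for cell cycle arrest, apoptosis, DNA repair and metabolism.

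The members' levels are given in FPKM, which are fragments scaled to gene length and library depth. Recovered library depths were 32323121 to 34027079 fragments in knockout and 27363313 to 30515209 in WT. The targeted transcript was at 7.82, 8.92 and 8.14 FPKM in knockout, and at 13.0, 17.1 and 201 FPKM in WT replicates 1, 2 and 3. No knockout library reached the lowest WT library (p = 0.1 by an exact permutation test, two-sided, where groups of 3 cannot give a smaller p). WT replicate 3 thus stood apart in the targeted gene, and it was the highest WT library in 9 of 10 interferon response genes (MX1 was lowest there), whose summed level was 241 FPKM there, 78.0 and 79.3 FPKM in the other WT libraries and 6.43 to 8.13 FPKM in knockout. The study lists this guide against YTHDC2, shown because it bears on the remaining transcript, and written 5′ to 3′.
YTHDC2 guide: ctgactgagtcgatgaataa
It matched the strand opposite to the transcript in coding sequence of exon 2 of 30, at chr5:113515314-113515333 of GRCh38, and the next bases of the genome were AGG. FPKM over a whole gene cannot show whether that site was changed. Of 16 lung epithelial markers, 14 were measured and 9 of these averaged below 1 FPKM. The epithelial adhesion gene EPCAM was at 0.194 to 0.278 FPKM in knockout and 0.658 to 0.912 FPKM in WT (log2 fold change -1.41, adjusted p = 6.79e-04 by limma). The keratin gene KRT19 was at 0 to 0.0216 FPKM in knockout and 0.759 to 1.25 FPKM in WT (log2 fold change -3.28, adjusted p = 2.82e-05 by limma), while KRT8 was at 95.1 to 101 FPKM and 77.4 to 88.0 FPKM. Of the 12 markers tested, 2 were called lower, against 1.99% of all genes tested. At an adjusted p under 0.05, 5 were lower, with KRT7, CLDN4 and ELF3 among them, against 26.2% of all genes. The 2 that were higher were KRT8 and KRT18, against 16.6% of all genes. The lung transcription factor gene NKX2-1 overlapped between the groups at 1.32 to 1.78 FPKM. Some of these markers, EPCAM and KRT19 among them, thus differed between the same groups as the members below. The part of the markers in those results was not tested. The libraries carried the simple epithelial keratins KRT8 and KRT18, but little KRT19 or KRT7 (KRT7 at 0 to 0.0901 FPKM in knockout and 0.148 to 0.259 FPKM in WT). Most lung markers were also low, and the libraries are called by their labels here.

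Most p53 members were lower in YTHDC2 knockout cells, in every branch of the pathway. A gene was called when its adjusted p was under 0.05 and its log2 fold change went beyond 1 in either direction, on the scale of log2(FPKM + 0.1), where folds of genes at low FPKM are understated. TNFRSF10A was too low to be tested, and of the 39 members tested, 10 were called lower against 1.99% of all 15441 genes tested. None was called higher by limma on FPKM or by limma voom on recovered fragments, against 0.732% of all genes, and 2 were higher at an unadjusted p under 0.05, against 19.4% of all genes. At an adjusted p under 0.05 with no fold threshold, written below as adjusted p alone and counting the called genes too, 29 members were lower and 2 were higher, against 26.2% and 16.6% of all genes. All 3 knockout libraries lay below all 3 WT libraries in 29 members and above them in 2, against 33.1% and 20.7% of all genes. The median log2 fold change was -0.50 for the members, with a range of -1.79 to 0.43, and -0.09 for all genes tested. In bulk RNA, fewer cells that express a gene and less RNA per cell cannot be told apart.

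**Figure D1:**
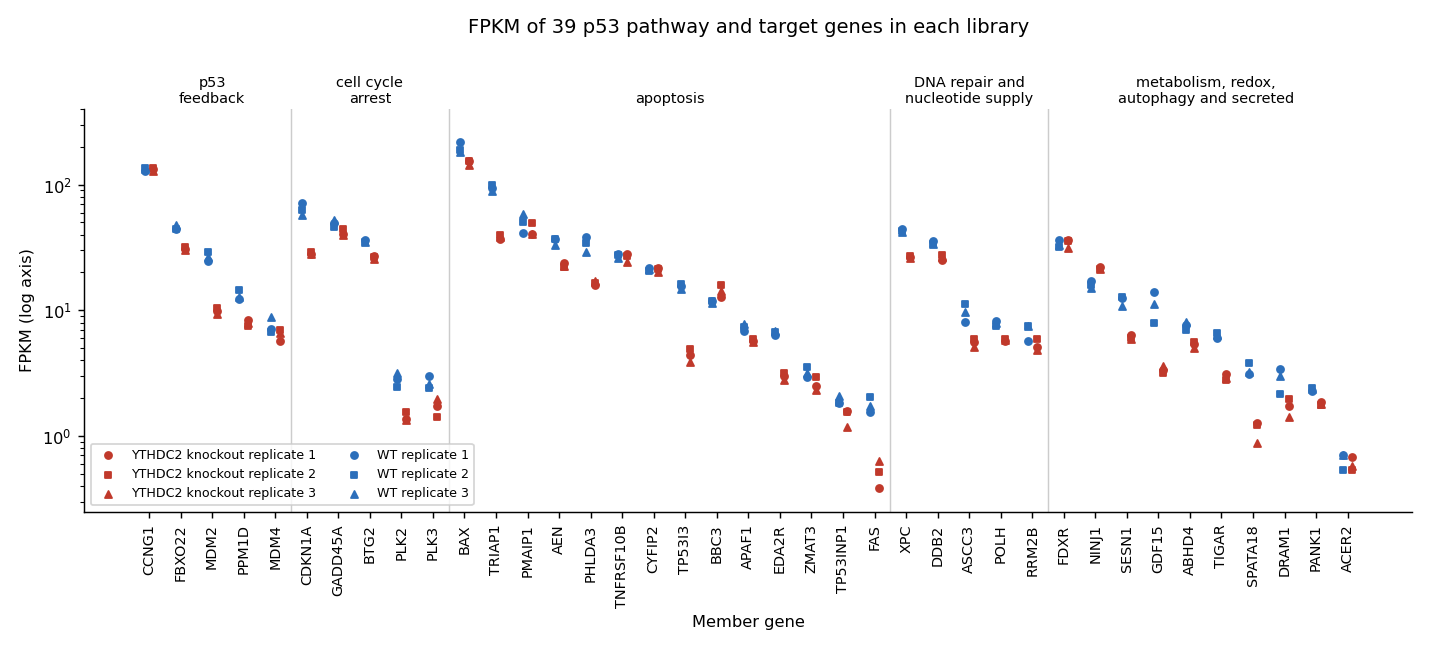
Level of the 39 tested members in each library, in FPKM on a log axis, ordered by branch and by WT level (red, YTHDC2 knockout; blue, WT; circle, square and triangle, replicates 1, 2 and 3). BAX and CCNG1 were among the highest and FAS and ACER2 among the lowest, and in 29 members the red points lie wholly below the blue ones.

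The 3 libraries of a genotype lay close together in most members. Over the 39 members the median distance between the highest and lowest library was 0.15 log2 units in knockout and 0.20 in WT. Relative to the WT mean, the median member stood at -0.48, -0.44 and -0.59 log2 units in knockout replicates 1, 2 and 3, where the median of all genes stood at -0.09, -0.07 and -0.10. WT replicate 3 was the highest WT library in 10 members and the lowest in 11, against 5518 and 4114 of all 15441 genes tested. The part of the interferon genes in the members' values was not tested. Without WT replicate 3, 11 members were called lower, 25 were lower at adjusted p alone, 1 was higher, and the median log2 fold change was -0.45.

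The feedback branch holds genes whose products restrain p53. MDM2 was at 9.94, 10.4 and 9.37 FPKM in knockout and at 24.6, 29.0 and 26.8 FPKM in WT. The groups did not overlap, and WT was 2.71-fold above knockout (log2 fold change -1.43 ± 0.07 SE, adjusted p = 1.20e-05 by limma). PPM1D, which encodes the phosphatase WIP1 that removes activating phosphates from p53 and its kinases, was at 7.56 to 8.40 FPKM in knockout and 12.2 to 14.4 FPKM in WT (log2 fold change -0.71, adjusted p = 2.51e-04 by limma). FBXO22, part of a ubiquitin ligase that acts on methylated p53, was at 30.0 to 32.0 FPKM in knockout and 44.0 to 47.6 FPKM in WT (log2 fold change -0.55, adjusted p = 1.24e-04 by limma). Both were lower at adjusted p alone. MDM4, the partner of MDM2 that masks the activation domain of p53, overlapped between the groups (log2 fold change -0.22, adjusted p = 0.16 by limma). CCNG1, the cyclin G1 gene, was among the most abundant members, and its groups overlapped at 134, 136 and 127 FPKM in knockout and 128, 135 and 133 FPKM in WT. Its log2 fold change was 0.003 and changed sign between analyses.

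In the arrest branch all 5 members were lower at adjusted p alone, against 26.2% of all genes tested. CDKN1A, which encodes the cyclin-dependent kinase inhibitor p21, was at 28.3, 29.3 and 28.0 FPKM in knockout and at 71.6, 63.2 and 57.9 FPKM in WT. It was the called member of the branch, 2.25-fold higher in WT (log2 fold change -1.16 ± 0.07 SE, adjusted p = 2.32e-05 by limma). The polo-like kinase gene PLK2 lay just outside the fold threshold, at 1.34 to 1.56 FPKM in knockout and 2.45 to 3.18 FPKM in WT (log2 fold change -0.94, adjusted p = 6.46e-04 by limma). PLK3 had a log2 fold change of -0.62 and the antiproliferative gene BTG2 one of -0.43. GADD45A, a stress sensor that binds PCNA and checkpoint kinases, changed least, from 45.7 to 51.9 FPKM in WT to 40.1 to 44.3 FPKM in knockout (log2 fold change -0.23, adjusted p = 0.0155 by limma), and in 5 of 17 alternatives its adjusted p was above 0.05.

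**Figure D2:**
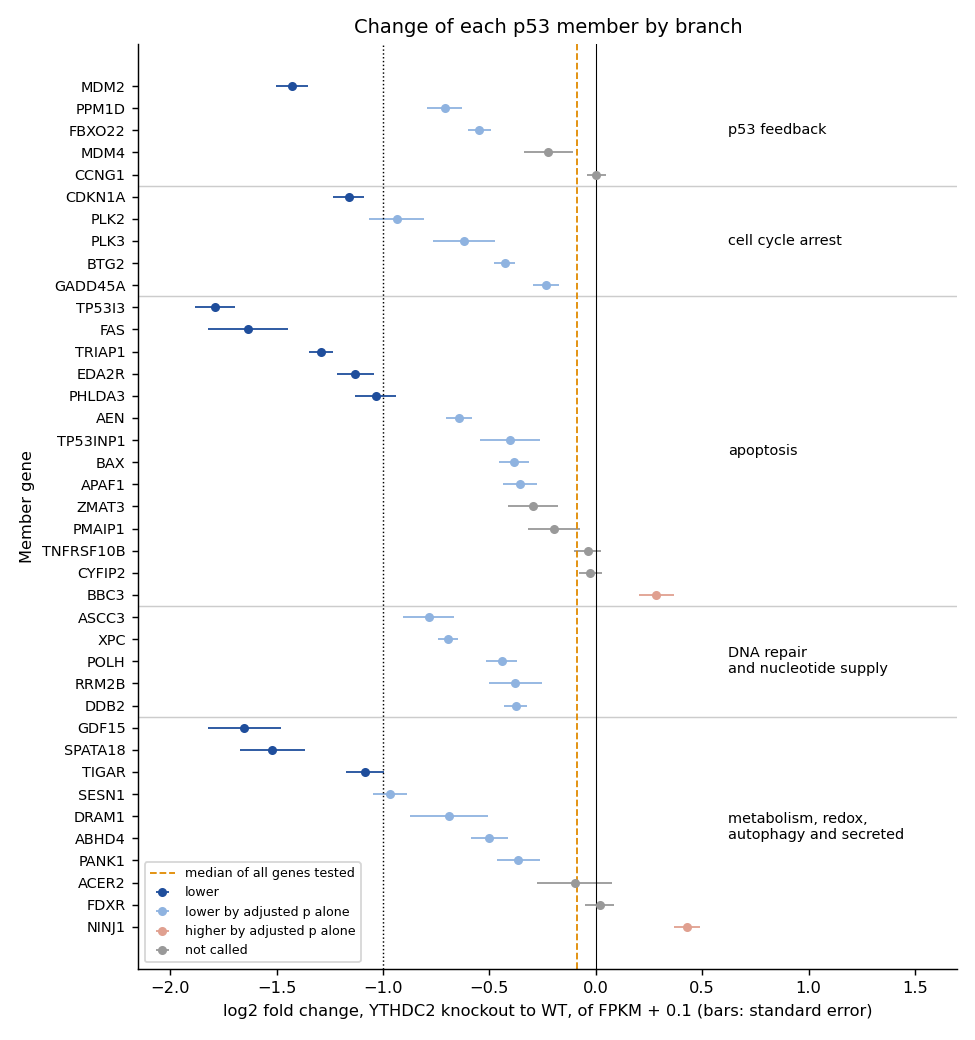
Log2 fold change of YTHDC2 knockout to WT for each tested member, by branch, with its standard error (dark blue, called lower; light blue or light red, lower or higher at adjusted p but within the fold threshold; grey, not called). The dotted line marks -1 and the dashed line the median of all genes tested, -0.09; 35 of 39 members lie below 0.

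Of the 14 tested members of the apoptosis branch, 5 were called lower, against 1.99% of all genes tested. At adjusted p alone 9 were lower and 1 was higher, against 26.2% and 16.6% of all genes, and 4 did not pass. TP53I3, an oxidoreductase gene linked to reactive oxygen species, was at 4.39, 4.96 and 3.91 FPKM in knockout and at 15.5, 16.2 and 14.7 FPKM in WT. That is a 3.50-fold difference with no overlap (log2 fold change -1.79 ± 0.09 SE, adjusted p = 1.20e-05 by limma). TRIAP1 works the other way, as an inhibitor of apoptosis, and was at 36.6, 40.1 and 38.5 FPKM in knockout and at 93.8, 99.2 and 89.2 FPKM in WT. It was 2.45-fold higher in WT (log2 fold change -1.29 ± 0.06 SE, adjusted p = 5.80e-06 by limma).

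Of the receptors in the branch, FAS and EDA2R were called lower. FAS was low in both groups, at 0.383, 0.517 and 0.634 FPKM in knockout and at 1.55, 2.06 and 1.74 FPKM in WT, or 105 to 165 and 378 to 506 fragments per library. WT was 3.49-fold higher (log2 fold change -1.64 ± 0.19 SE, adjusted p = 2.71e-04 by limma). FAS shares 380 exon bases with ACTA2 on the opposite strand. ACTA2, a gene named after its values were seen, had a log2 fold change of -1.68. Its mean over all libraries was 15.1 FPKM, against 1.15 FPKM for FAS. The strand setting of the counting is not given in the sources used here, so fragments of these genes cannot be told apart. EDA2R, a receptor for ectodysplasin A2, was at 3.00, 3.17 and 2.77 FPKM in knockout and at 6.34, 6.68 and 6.90 FPKM in WT (log2 fold change -1.13 ± 0.09 SE, adjusted p = 5.00e-05 by limma). TNFRSF10B, the TRAIL receptor DR5, overlapped fully, at 28.0, 27.3 and 24.4 FPKM in knockout and at 28.0, 27.3 and 26.3 FPKM in WT (log2 fold change -0.04 ± 0.06 SE). TNFRSF10A, the TRAIL receptor DR4, had 0 fragments over the 3 knockout libraries and 7 over the WT libraries. With a floor of 3 fragments for the knockout group, it was 2.63-fold higher in WT. This ratio takes the 7 WT fragments as exact, so it is not a firm lower limit. WT replicate 2 held 5 of these fragments, and 1 WT library was also at 0.

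Among the intracellular members PHLDA3 was also called lower. PHLDA3, an inhibitor of AKT signalling, was at 15.8, 16.5 and 17.1 FPKM in knockout and at 38.6, 34.5 and 29.0 FPKM in WT (log2 fold change -1.03 ± 0.10 SE, adjusted p = 1.01e-04 by limma). It lay at the fold threshold, and without WT replicate 1 its log2 fold change was -0.94. BAX, the pore-forming protein of the mitochondrial pathway, was the most abundant member, at 153, 153 and 143 FPKM in knockout and at 219, 187 and 183 FPKM in WT (log2 fold change -0.39, adjusted p = 0.00228 by limma). AEN, an apoptosis-enhancing nuclease, was at 22.0 to 23.8 FPKM in knockout and 33.2 to 37.2 FPKM in WT (log2 fold change -0.64). APAF1, the scaffold of the apoptosome, and TP53INP1, a p53 cofactor, had log2 fold changes of -0.36 and -0.40. The adjusted p of TP53INP1 was 0.0474 by limma, and it was above 0.05 in 12 of 17 alternatives, among them each library left out (0.0567 to 0.164) and the replicate block (0.0567). The remaining members of the branch include the BH3-only genes, whose products release BAX from its inhibitors. BBC3, which encodes PUMA, was at 12.8, 16.0 and 14.3 FPKM in knockout and at 11.8, 12.0 and 11.4 FPKM in WT, with every knockout library above every WT library (log2 fold change 0.29 ± 0.08 SE, adjusted p = 0.0222 by limma). Of 17 alternatives, 6 gave it an adjusted p above 0.05. PMAIP1, which encodes NOXA, overlapped at 40.3 to 49.1 FPKM in knockout and 41.1 to 58.5 FPKM in WT (log2 fold change -0.20, adjusted p = 0.236 by limma). The RNA-binding protein gene ZMAT3 had a log2 fold change of -0.30 (adjusted p = 0.0731 by limma) and CYFIP2, of the WAVE complex, one of -0.03 (adjusted p = 0.744 by limma).

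**Figure D3:**
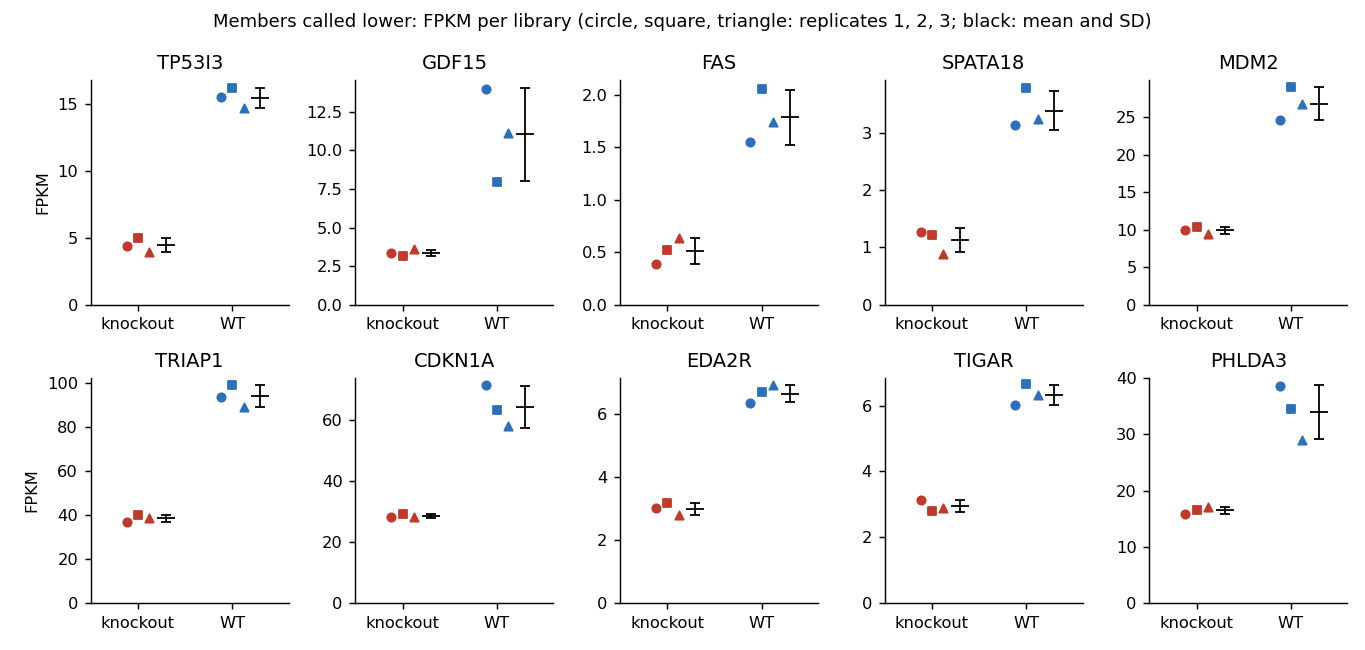
FPKM per library of the 10 members called lower, each on a linear axis from 0 (circle, square and triangle, replicates 1, 2 and 3; black, mean and SD of 3 libraries). In each panel the knockout libraries lie below the WT libraries; the WT libraries of GDF15 spread from 7.98 to 14.0 FPKM.

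All 5 members for DNA repair and nucleotide supply were lower at adjusted p alone, against 26.2% of all genes tested. None passed the fold threshold with either limma or limma voom, where limma called 1.99% of all genes lower and 0.732% higher. XPC, which recognises damage in global nucleotide excision repair, was at 26.5, 27.1 and 26.1 FPKM in knockout and at 44.1, 43.0 and 42.1 FPKM in WT (log2 fold change -0.69 ± 0.05 SE, adjusted p = 3.07e-05 by limma). XPC shares 318 exon bases with LSM3 on the opposite strand, which had a log2 fold change of -0.58 and was named after its values were seen. DDB2, which finds ultraviolet damage ahead of XPC, was at 25.1 to 27.6 FPKM in knockout and 33.5 to 35.7 FPKM in WT (log2 fold change -0.38). The helicase gene ASCC3 had the largest change of the branch (log2 fold change -0.78 ± 0.12 SE). POLH, the translesion polymerase eta, stood at -0.44 and RRM2B, the p53-inducible ribonucleotide reductase subunit, at -0.38 (adjusted p = 0.0355 by limma). The adjusted p of RRM2B was above 0.05 in 9 of 17 alternatives, and it was 0.118 without WT replicate 3. RRM2B was the member lower at adjusted p alone whose groups overlapped, with 5.90 FPKM in knockout replicate 2 against 5.73 FPKM in WT replicate 1.

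Of the 10 members for metabolism, redox control, autophagy and secreted signals, 3 were called lower, against 1.99% of all genes tested. GDF15, a secreted stress cytokine, was at 3.33, 3.18 and 3.58 FPKM in knockout and at 14.0, 7.98 and 11.2 FPKM in WT (log2 fold change -1.65 ± 0.17 SE, adjusted p = 1.71e-04 by limma). The knockout libraries were close together and the WT libraries spread widely, with no overlap. SPATA18, a mitochondrial quality control gene, was at 1.27, 1.22 and 0.883 FPKM in knockout and at 3.14, 3.79 and 3.24 FPKM in WT (log2 fold change -1.52 ± 0.15 SE, adjusted p = 1.46e-04 by limma). TIGAR, which lowers fructose-2,6-bisphosphate and so slows glycolysis, was at 3.14, 2.79 and 2.89 FPKM in knockout and at 6.03, 6.65 and 6.33 FPKM in WT (log2 fold change -1.08 ± 0.09 SE, adjusted p = 6.32e-05 by limma). Sestrin 1, encoded by SESN1 and a brake on mTORC1, fell just short of the fold threshold, at 5.96 to 6.37 FPKM in knockout and 10.8 to 12.8 FPKM in WT (log2 fold change -0.97 ± 0.08 SE).

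The rest of that branch showed smaller changes in both directions. DRAM1, a lysosomal protein gene of autophagy, had a log2 fold change of -0.69, ABHD4, a lipase gene, one of -0.50, and PANK1, of coenzyme A synthesis, one of -0.36, each lower at adjusted p alone. Of 17 alternatives, PANK1 had an adjusted p above 0.05 in 6 and DRAM1 in 2. NINJ1, a membrane protein gene, had the highest log2 fold change of the members, at 22.2, 21.2 and 21.2 FPKM in knockout and at 17.0, 15.8 and 15.1 FPKM in WT. Its log2 fold change was 0.43 ± 0.06 (SE, adjusted p = 7.63e-04 by limma), and its adjusted p stayed under 0.05 in all 17 alternatives. FDXR, the ferredoxin reductase gene, was at 31.6 to 36.2 FPKM in knockout and 32.1 to 36.5 FPKM in WT (log2 fold change 0.02, adjusted p = 0.861 by limma). ACER2, a ceramidase gene with 98 to 139 fragments per library, had a log2 fold change of -0.10 (adjusted p = 0.688 by limma). Both overlapped between the groups.

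Other genes of the p53 network were read from 3 lists taken from general knowledge. Of 42 further reported p53 targets tested, 6 were called lower, against 1.99% of all genes tested. At adjusted p alone 18 were lower and 4 higher, against 26.2% and 16.6% of all genes, and the median log2 fold change was -0.28. LIF, a cytokine of the interleukin 6 family, was at 1.53, 1.27 and 1.28 FPKM in knockout and at 4.31, 5.17 and 3.75 FPKM in WT (log2 fold change -1.62, adjusted p = 7.82e-05 by limma). The ribosomal protein-like gene RPS27L was at 4.32, 4.42 and 4.46 FPKM in knockout and at 9.98, 10.6 and 9.14 FPKM in WT (log2 fold change -1.15, adjusted p = 3.12e-05 by limma). Both had clear levels in WT. Other called targets were near the pseudocount in knockout: IGFBP3 at 0.0114 to 0.0585 FPKM, TLR3 at 0.00499 to 0.0243 FPKM and TRIM22 at 0 to 0.149 FPKM. TLR3 and TRIM22 are also induced by interferon, and TRIM22 was at 0.943, 1.14 and 5.22 FPKM in WT replicates 1, 2 and 3, and was not called by limma voom (adjusted p = 0.182). The part of the interferon genes in these values was not tested.

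The upstream regulators and the genes that p53 represses showed no called gene with limma or limma voom. Of all genes tested, limma called 1.99% lower and 0.732% higher, and in lists this short the absence of a call is near those shares. Of 24 tested regulators, 9 were lower and 4 higher at adjusted p alone, against 26.2% and 16.6% of all genes, with a median log2 fold change of -0.19. At an unadjusted p under 0.05, 13 were lower and 4 higher, against 31.3% and 19.4% of all genes. The smallest adjusted p values were those of CREBBP, a histone acetyltransferase and p53 coactivator (log2 fold change -0.55, adjusted p = 3.11e-04 by limma), and TP53BP2, which encodes the coactivator ASPP2 (log2 fold change -0.36, adjusted p = 8.80e-04 by limma). Of 20 cell cycle genes that p53 represses through p21 and the DREAM complex, 4 were lower and 5 higher at adjusted p alone, with a median of 0.05, and 5 were lower and 6 higher at an unadjusted p under 0.05. The shares of all genes are those given for the regulators, 26.2% and 16.6% at adjusted p and 31.3% and 19.4% at unadjusted p. AURKB, the mitotic kinase of the chromosomal passenger complex, was at 111 to 116 FPKM in knockout and 81.5 to 90.3 FPKM in WT (log2 fold change 0.42, adjusted p = 3.37e-04 by limma). PLK1, another mitotic kinase, had a log2 fold change of 0.32 (adjusted p = 0.00184 by limma). These lists, like the members, are read by counts and medians, and the difference between lists was not tested.

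**Figure D4:**
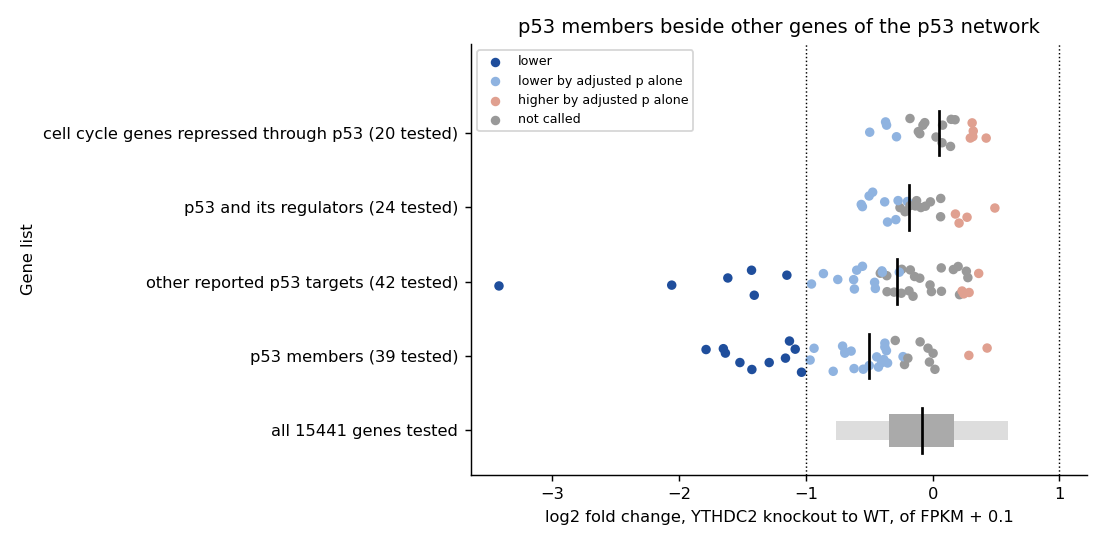
Log2 fold change of YTHDC2 knockout to WT for the p53 members and 3 other lists, 1 point per gene (colours as calls in the key; black ticks, medians; vertical scatter is for display). The bars for all 15441 genes span the 25th to 75th percentile, -0.34 to 0.17, and the 5th to 95th, -0.77 to 0.60; medians are -0.50 for the members, -0.28 for other targets, -0.19 for regulators and 0.05 for repressed genes.

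Fold changes of all genes followed the GC content of their transcripts. The median log2 fold change was -0.35 in the lowest of 10 equal groups of genes by GC content and 0.26 in the highest. The members' median GC content was 47.2%, against 49.7% for all genes tested, and they were spread over all 10 groups. Of the 39 members, 31 lay below the median of their own group, and 8 lay more than 1 log2 unit below it, namely MDM2, CDKN1A, FAS, TP53I3, PHLDA3, TRIAP1, SPATA18 and GDF15. These were also the members called lower after the trend with GC content was subtracted from each library. GDF15 and TP53I3 have GC-rich transcripts, where most genes were higher, and stood at -1.85 and -1.87 after subtraction.

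Several of the smaller changes moved with this subtraction. After subtraction 25 members were lower and 2 were higher at adjusted p alone. BBC3, with a GC content of 69.7%, then stood at -0.03 (adjusted p = 0.85 by limma). CCNG1, at 38.2% GC, stood at 0.36 (adjusted p = 0.00178 by limma), and FDXR, at 64.3% GC, at -0.21 (adjusted p = 0.021 by limma). FBXO22, APAF1, TP53INP1, RRM2B and PANK1 were lower at adjusted p alone in the deposited scale and did not pass after subtraction, with log2 fold changes of -0.18, -0.05, -0.06, -0.01 and -0.10. The GC content used is that of the longest transcript, which need not be the one counted. For FBXO22 that transcript has 10725 bases, against a gene length of 2386 bases recovered from the FPKM values. NINJ1 was higher on both scales, at 0.23 after subtraction. Since YTHDC2 binds m6A, the 5-base motif GGACT was also counted in the longest transcript of each gene. GGACT is a form of the RRACU motif (R is A or G) that the paper searched, and other forms were not counted. The median density of GGACT was 0.942 per kilobase in the members and 0.943 in all genes tested. Whether the members carry m6A was not tested.

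**Figure D5:**
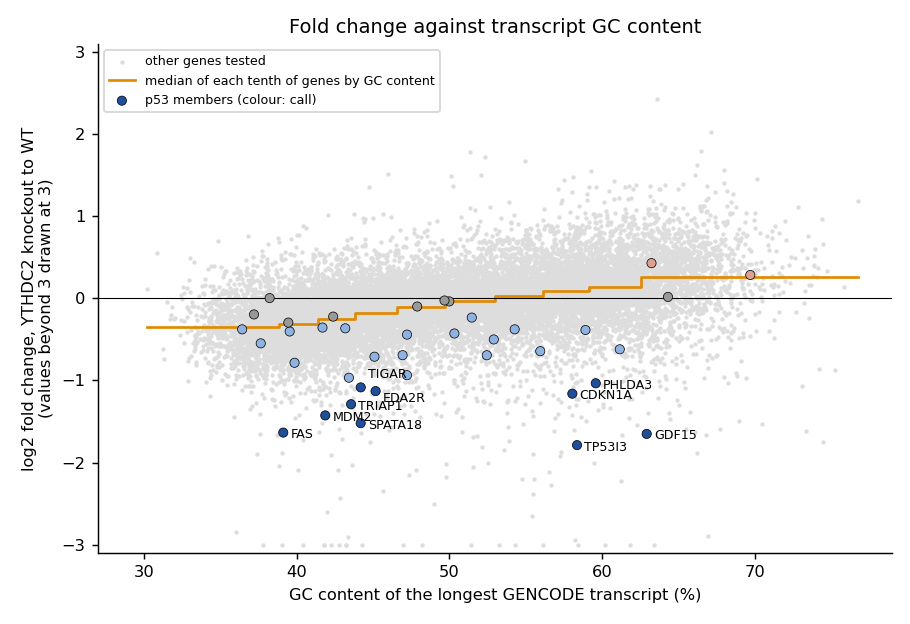
Log2 fold change of YTHDC2 knockout to WT against the GC content of the longest transcript, for all genes with a matched transcript (grey), the median of 10 equal groups by GC content (orange line) and the members (circles coloured by call). The orange line climbs from -0.35 to 0.26; the 10 labelled members lie well below it at both low and high GC content.

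p53 binds paired 10-base elements written as 3 purines, C, 2 bases of A or T, G and 3 pyrimidines, which read the same way on both strands. RefSeq promoter windows of GRCh38.p14, from 250 bases before to 50 after a gene's start, were available for 32 of the 40 members (not matched were FBXO22, GADD45A, TNFRSF10A, TNFRSF10B, TP53INP1, PHLDA3, RRM2B and ASCC3). An element was present in 8 of these 32 members, or 25.0%, and in 7.76% of the 12242 tested genes with a window. Among members called lower it was present in 1 of 9, which was FAS, and among the other members in 7 of 23. Sequences are shown for FAS, for SESN1 just outside the fold threshold, for FDXR, which did not pass, and for DDB2, with the elements in capitals, 5′ to 3′ on the strand of the gene.
FAS: cggaactcctGGACAAGCCCtgacaagcca
SESN1: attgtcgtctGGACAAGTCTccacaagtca
FDXR: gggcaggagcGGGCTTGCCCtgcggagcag
DDB2: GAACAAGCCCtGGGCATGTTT
The FAS stretch is at chr10:88991299-88991328, that of SESN1 at chr6:109009018-109009047 and that of FDXR at chr17:74872986-74873015. DDB2, at chr11:47214979-47214999, was the member with elements paired within 13 bases, here 1 base apart, as in 4 of the 12242 genes (0.0327%). The log2 fold changes of these genes ran from -1.64 in FAS through -0.97 in SESN1 and -0.38 in DDB2 to 0.02 in FDXR. The remaining members with an element were ABHD4, AEN, PANK1 and PLK2, all lower at adjusted p alone. A match describes letters in a window, and many p53 sites are known to lie in introns and distal elements outside it.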

How the data were processed

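The authors deposited 1 table of FPKM values for 16760 genes in 6 libraries, made with GRCh38.p13. Total RNA had been isolated with TRIzol and prepared with a VAHTS Universal V6 kit. The sources used here name no aligner, counting program, annotation or strand setting. Whole fragments were recovered from the FPKM steps for all 16760 genes, within 0.02 of a whole number. The 15441 genes with fragments in 3 or more libraries entered limma 3.58.1 (R 4.3.3), fitted to log2(FPKM + 0.1) with trend and robust moderation, and p-values were adjusted over all of them by the Benjamini-Hochberg method. Both the recovery and the fit were tested on simulated data. Genotypes came from the labels. The members, lists and rules were chosen with earlier results of these data known. All 40 members, YTHDC2, and in each other list the called genes or else the 2 with the smallest adjusted p, were to be named, and the values of some genes within this rule are not reported here. GC content and positions came from GENCODE (GRCh38), matched for 97.3% of genes. Alternatives were pseudocounts of 0.01 and 1, no filter, a mean of at least 1 FPKM, 3 other scalings, GC correction, limma without moderation options, limma voom on recovered fragments, a replicate block, and leaving out each library. Python 3.11.15 with numpy 2.4.6, pandas 2.3.3 and scipy 1.17.1 made the tables.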

Additional observations from a re-analysis of the deposited data

How the results depend on the processing

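The direction of the members as a set did not change under the 17 alternatives: their median log2 fold change stayed between -0.56 and -0.37, the number called lower between 6 and 11, and the number lower at adjusted p alone between 24 and 30, while 0 were called higher in each. The median was -0.44 with a pseudocount of 1, -0.37 with median scaling (which moved the median of all genes from -0.09 to 0.04), -0.56 with FPKM rescaled to a common total and -0.44 with GC correction, and -0.56 to -0.45 with a library left out (-0.56 without WT replicate 2). With a pseudocount of 1, 6 members were called lower, since FAS (-0.88), EDA2R (-0.94), PHLDA3 (-1.0) and TIGAR (-0.90) no longer passed the fold threshold. Median scaling called 7, without EDA2R, PHLDA3 and TIGAR, quantile normalization 9, without TIGAR, and GC correction 8, without EDA2R and TIGAR. With a library left out, 9 to 11 were called lower: PHLDA3 was lost without WT replicate 1, PLK2 was added without knockout replicate 2 or WT replicate 2, and SESN1 without WT replicate 3. The 2 members higher at adjusted p alone became 1 with rescaled FPKM, with limma without trend and robust moderation, and without knockout replicate 2, knockout replicate 3 or WT replicate 3 (range 1 to 2), each time through the loss of BBC3. Regulators lower at adjusted p alone were 9, and 14 with rescaled FPKM, 6 with median scaling and 6 to 12 with a library left out (6 without knockout replicate 3). Repressed cell cycle genes lower at adjusted p alone were 4, and 1 with GC correction and 3 to 7 with a library left out (7 without WT replicate 1). Calls over all genes were 307 lower and 113 higher, and 206 and 209 with median scaling, 206 and 195 with quantile normalization, 69 and 29 with a pseudocount of 1, 505 and 184 with a pseudocount of 0.01, and 483 and 167 with limma voom. The causes of these shifts were not tested.

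Values that changed sign lay between -0.21 and 0.17 after the change. With GC correction they were MDM4 (0.06), BBC3 (-0.03, adjusted p = 0.85 by limma), PMAIP1 (0.17), TNFRSF10B (0.06), ZMAT3 (0.05), CYFIP2 (0.08), FDXR (-0.21, adjusted p = 0.021 by limma) and ACER2 (0.05). With median scaling they were TNFRSF10B (0.09), CYFIP2 (0.10) and ACER2 (0.03), with quantile normalization CCNG1 (-0.08), TNFRSF10B (0.01), CYFIP2 (0.02) and ACER2 (0.09), and with rescaled FPKM CCNG1 (-0.06) and FDXR (-0.05). With a library left out, CCNG1 ranged from -0.02 (without knockout replicate 2 or WT replicate 1; -0.004 without knockout replicate 1), FDXR from -0.02 (without knockout replicate 1 or WT replicate 2; -0.005 without knockout replicate 2), and without knockout replicate 3 TNFRSF10B was 0.02 and CYFIP2 0.003. With a replicate block 10 members were called lower, 28 were lower and 2 higher at adjusted p alone, and no call of the members at both thresholds changed. Deviations of same-numbered libraries correlated at 0.0762, 0.0186 and -0.0239, so the numbers were not taken to pair the libraries.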
